A study of Mus musculus with 6 samples.

Results

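T cells of the small intestine lie in the lamina propria and, as intraepithelial lymphocytes, between the epithelial cells themselves. Genes of these cells were followed in mucosa scraped from the jejunum of ISR2 mice and of wild type mice. The list held 47 gene symbols for the T cell receptor complex and its coreceptors, the signalling proteins beside it, surface receptors, cytotoxic effectors, homing receptors, cytokine receptors and transcription factors. A member was taken where a row of the array was annotated with that symbol alone, and 45 of the 47 had such a row, among 19938 genes tested. Lck was not analysed here. The symbol Cd244 is listed as a synonym of Cd244a, so the row named Cd244a was kept out of the counts and is described separately. Each of the 45 members had 1 row on the array.

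The 3 ISR2 samples came from transgenic C57/BL mice in which SREBP2, the transcription factor that switches on cholesterol synthesis, is overactive in the intestine. The 3 wild type samples came from their littermates, which do not carry the transgene. Both groups were C57/BL mice of 8 to 10 weeks on regular chow, and RNA was taken from mucosal scrapings. The transgene's promoter and form are not given in the sources. No label ties an array to its own mouse, so the p-values below rest on a spread that may be technical. Srebf2 stood at 11.02, 10.85 and 11.16 in ISR2 replicates 1, 2 and 3, against 9.04, 9.15 and 9.50 in wild type replicates 1, 2 and 3, in log2 RMA units. Array medians ranged from 6.04 to 6.19, and the number of arrays limits the precision.

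Intraepithelial lymphocytes are mostly CD8 T cells, many of them with a gamma delta receptor or with CD8 alpha chains paired with each other. They carry granzymes and killer receptors in a ready state, and are held in the epithelium by the integrin CD103, which binds E-cadherin. The receptor CCR9, which binds the epithelial chemokine CCL25, guides T cells to the small intestine, and interleukin 15 from the epithelium sustains them.

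Of the 45 measured members, 9 fell and 0 rose at an adjusted p of 0.05 in limma, where 1.23% of all genes tested fell, 1.79% rose and 3.02% changed either way. The 9 were Cd3e, Cd3g, Cd8a, Cd7, Cd96, Gzmb, Ccl5, Ccr9 and Il2rb. At an unadjusted p under 0.05, 26 of the 45 were lower and 0 were higher, against 8.4% and 4.73% of all genes. The log2 change (ISR2 minus wild type) was below 0 in 44 of 45 members, against 62.6% of all genes, and its median was -0.39 over the members and -0.06 over all genes. All 3 ISR2 arrays lay below all 3 wild type arrays in 25 of 45 members, or 55.6%, against 13.9% of all genes, and 0 had all 3 ISR2 arrays above, against 5.87% of all genes. In scraped tissue, fewer T cells and less of these RNAs per cell cannot be told apart.

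**Figure D1:**
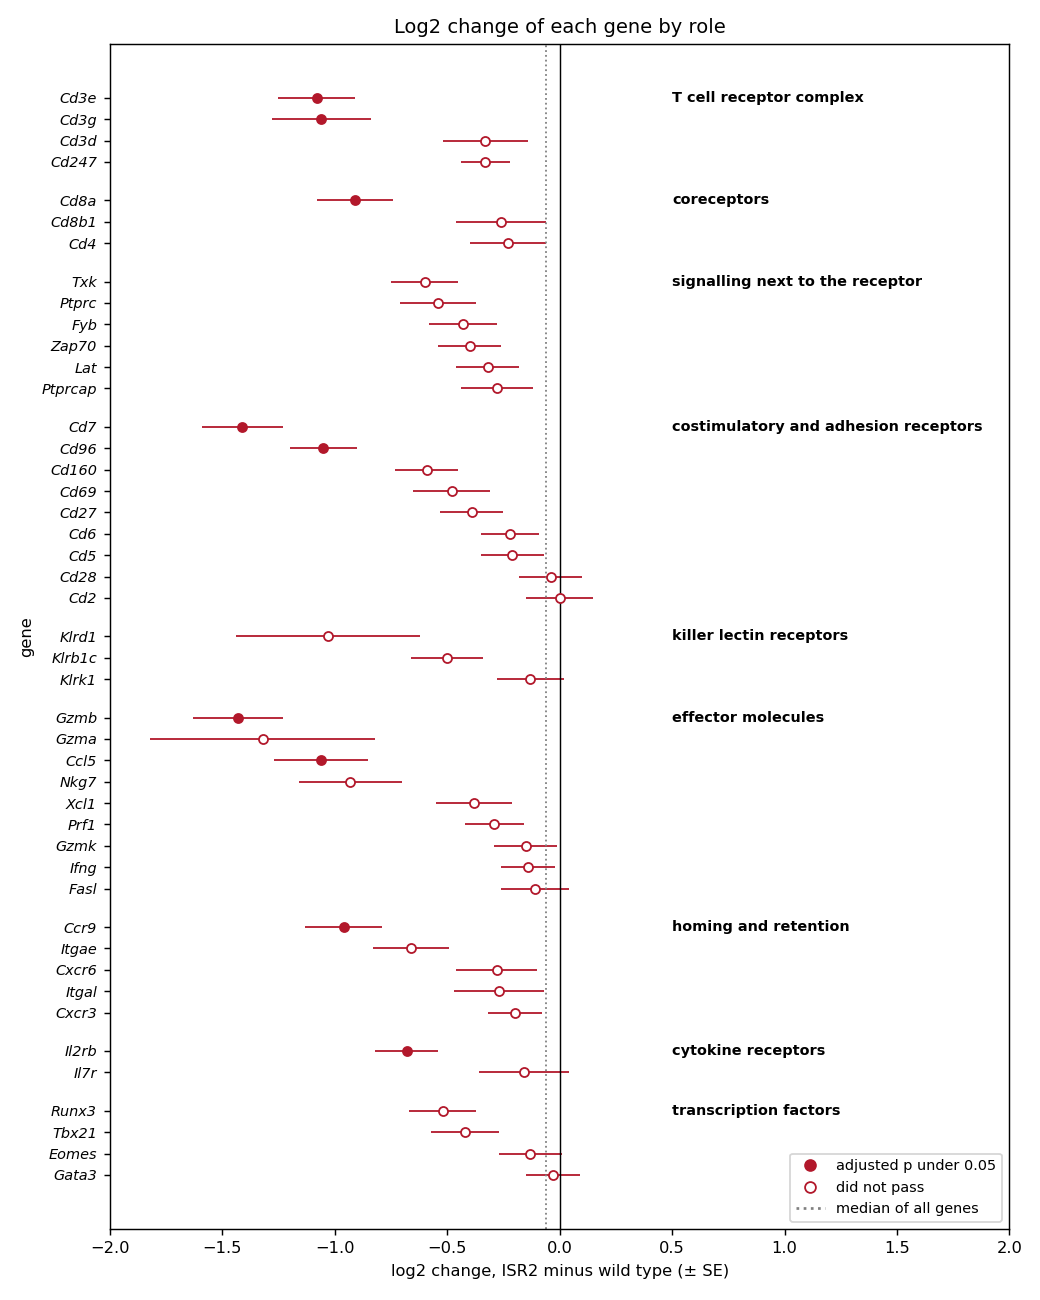
Log2 change, ISR2 minus wild type, of the 45 genes with a row, grouped by role; bars are the SE of the fit over 3 arrays per group, filled points passed an adjusted p of 0.05, and the dotted line is the median of all genes (-0.06). The filled points lie between -1.43 and -0.68, and open points run up to 0.00 for Cd2.

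The count of members that fell depended on the arrays used. Leaving out ISR2 replicate 1, 2 or 3 gave 5, 11 or 5 members, and leaving out wild type replicate 1, 2 or 3 gave 4, 5 or 7. The share of all genes that fell moved in the same fits, from 0.426% without wild type replicate 1 to 1.18% without ISR2 replicate 2. Cd3e, Cd7, Cd96 and Gzmb fell in each of the 6 fits that left out 1 array, but Cd3e did not pass without both replicates 2 (adjusted p = 0.0628). The median change of the members stayed between -0.45 and -0.32 in those fits.

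The CD3 chains carry the signal of the T cell receptor into the cell and define T cells. Cd3e, the epsilon chain, stood at 7.77, 7.60 and 7.47 in ISR2 replicates 1 to 3, against 8.97, 8.74 and 8.37 in wild type replicates 1 to 3. The lowest wild type array was above the highest ISR2 array, and the gene was 2.11-fold lower in ISR2 (log2 change -1.08 ± 0.17, SE, 3 arrays per group; adjusted p = 0.00889). Cd3g, the gamma chain, stood at 6.29, 6.56 and 5.91 in ISR2 mucosa and at 7.50, 7.55 and 6.88 in wild type mucosa. The groups did not overlap, and it was 2.08-fold lower (-1.06 ± 0.22, SE; adjusted p = 0.037). The call of Cd3g was lost when ISR2 replicate 1 or 3 or wild type replicate 1 or 2 was left out, with an adjusted p up to 0.177.

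The other chains had smaller differences. Cd247, the zeta chain, was narrow in both groups, at 5.57, 5.58 and 5.54 in ISR2 arrays and 5.92, 5.86 and 5.92 in wild type arrays. Those values do not overlap, but the change of -0.33 ± 0.11 (SE) did not pass (adjusted p = 0.228; 95% interval -0.59 to -0.08). Cd3d, the delta chain, stood at 5.41, 5.39 and 4.84 in ISR2 arrays against 5.72, 5.62 and 5.29 in wild type arrays, which overlap, with a change of -0.33 and a 95% interval of -0.75 to 0.10. Cd3e, Cd3d and Cd3g lie side by side on chromosome 9 in RefSeq's gene order (GRCm38.p6), with Cd3d between the others. Whether Cd3d changed less than its neighbours was not tested, and its group means of 5.22 and 5.54 were not shown to be above background.

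**Figure D2:**
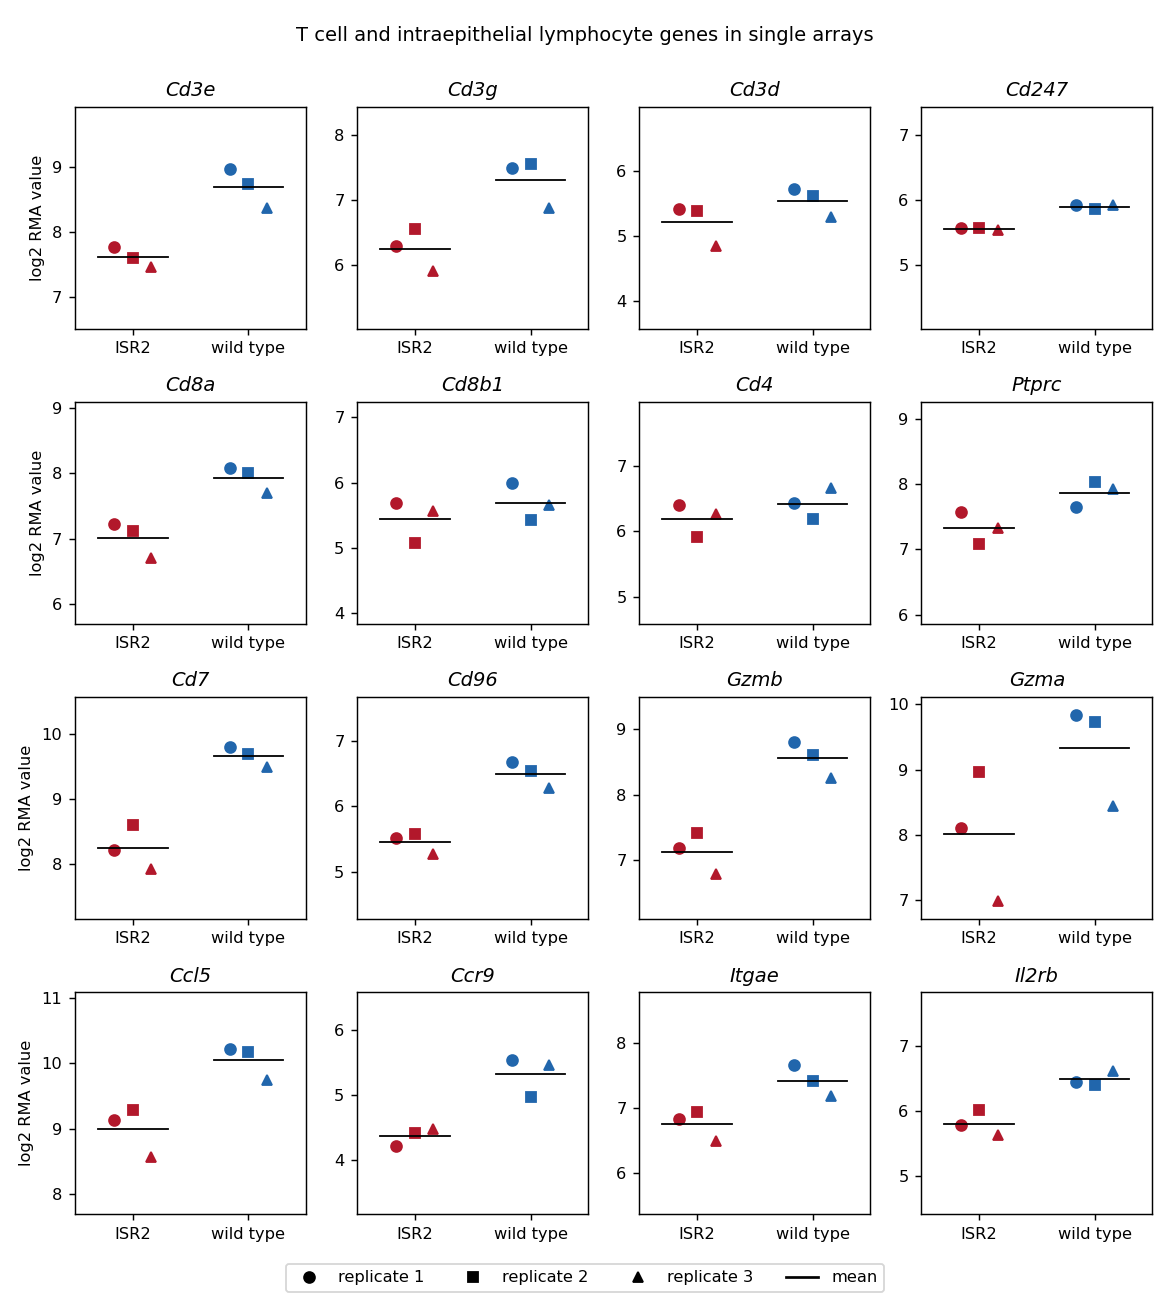
Log2 RMA values in single arrays for 16 of the genes, ISR2 at the left and wild type at the right of each panel, with marker shape for replicate and a line for the group mean; each vertical axis spans the same log2 distance. In Cd3e, Cd7, Cd96 and Gzmb the ISR2 arrays lie well below the wild type arrays, while Cd3d, Cd8b1 and Cd4 overlap.

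Promoter windows from RefSeq (GRCm38.p6; 250 bases before to 50 after a gene's start) were found for 32 of the 45 members, in 38 windows. They were searched on both strands for the RUNX motif TGTGGT, the ETS motif AGGAAG, the T-box motif GGTGTGA, the GATA motif AGATAA and the sterol regulatory element TCACNCCAC, to which SREBP binds. The T-box letters can fall inside the sterol element. RUNX letters stood in 17 of 38 member windows (44.7%) and in 16.8% of all 32851 windows, ETS letters in 21 (55.3%) and in 35.4%, T-box letters in 4 (10.5%) and in 3.98%, GATA letters in 4 (10.5%) and in 11.2%, and the sterol element in 0 and in 1.24%. Of the 6 windows of genes that fell, 2 held RUNX letters, 2 ETS letters, 1 GATA letters and 0 the T-box or sterol element letters. The windows of Cd3e (chr9:45009562-45009861, minus strand) and Cd3g (chr9:44980382-44980681, minus strand) are shown because these neighbours fell together. Capitals mark matches to any of these motifs, and a match is a match of letters only. Cd3e held 2 ETS matches and Cd3g held 1 GATA match.
Cd3e: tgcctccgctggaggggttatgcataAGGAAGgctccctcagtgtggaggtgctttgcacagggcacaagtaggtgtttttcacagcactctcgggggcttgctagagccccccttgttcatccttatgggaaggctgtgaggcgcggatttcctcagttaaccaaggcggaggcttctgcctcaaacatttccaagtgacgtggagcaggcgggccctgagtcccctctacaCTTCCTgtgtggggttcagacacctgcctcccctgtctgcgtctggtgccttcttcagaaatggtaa
Cd3g: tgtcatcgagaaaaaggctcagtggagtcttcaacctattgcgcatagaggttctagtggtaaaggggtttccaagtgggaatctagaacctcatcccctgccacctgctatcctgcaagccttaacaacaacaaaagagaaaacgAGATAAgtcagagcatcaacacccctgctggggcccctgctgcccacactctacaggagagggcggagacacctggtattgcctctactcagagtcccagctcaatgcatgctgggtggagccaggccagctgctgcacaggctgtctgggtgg

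Among the coreceptors, Cd8a fell and Cd8b1 and Cd4 did not pass. Cd8a, the alpha chain found in both forms of CD8, stood at 7.22, 7.11 and 6.71 in ISR2 arrays, against 8.08, 8.01 and 7.70 in wild type arrays. The groups did not overlap, and it was 1.88-fold lower (-0.91 ± 0.17, SE; adjusted p = 0.0221); the call was lost when ISR2 replicate 3 or wild type replicate 1 or 2 was left out (adjusted p up to 0.118). Cd8b1, the beta chain of conventional CD8 T cells, stood at 5.68, 5.07 and 5.56 in ISR2 arrays against 6.0, 5.43 and 5.65 in wild type arrays. Its groups overlapped, with a change of -0.26 ± 0.20 (SE; adjusted p = 0.675; 95% interval -0.71 to 0.20). Cd4, the helper T cell coreceptor that some macrophages also express, stood at 6.40, 5.91 and 6.27 in ISR2 arrays and at 6.43, 6.19 and 6.66 in wild type arrays. These overlapped as well (-0.23 ± 0.17, SE; adjusted p = 0.658; 95% interval -0.63 to 0.16), and without ISR2 replicate 2 and wild type replicate 3 the change of Cd4 was 0.03. Cd8a and Cd8b1 are direct neighbours on chromosome 6, and whether their changes differ was not tested. Group means of Cd8b1, 5.44 and 5.69, were not shown to be above background.

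None of the 6 signalling genes passed, although all had changes below 0. The nearest was Txk, a Tec family kinase of T cells, at 5.55, 5.68 and 5.21 in ISR2 arrays against 6.13, 6.12 and 5.98 in wild type arrays (-0.60 ± 0.15, SE; adjusted p = 0.0843). Its groups did not overlap. Ptprc, which encodes CD45 and marks all leukocytes, stood at 7.58, 7.08 and 7.33 in ISR2 arrays and at 7.65, 8.04 and 7.92 in wild type arrays (-0.54 ± 0.17, SE; adjusted p = 0.171). Changes were -0.43 for Fyb, an adaptor of integrin activation, and -0.40 for Zap70, the kinase that docks on phosphorylated CD3 chains. They were -0.32 for Lat, the membrane scaffold that ZAP70 phosphorylates, and -0.28 for Ptprcap, a CD45-associated protein, which alone of the 6 had overlapping groups.

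Of the 9 costimulatory and adhesion receptors measured, Cd7 and Cd96 fell. Cd7, a surface protein of T and NK cells, stood at 8.22, 8.60 and 7.93 in ISR2 arrays, against 9.79, 9.69 and 9.49 in wild type arrays. The gap between the groups was wider than the range within either, and Cd7 was 2.65-fold lower (-1.41 ± 0.18, SE; adjusted p = 0.00274). Cd96, which binds the nectin family member CD155, stood at 5.51, 5.58 and 5.27 in ISR2 arrays against 6.68, 6.54 and 6.28 in wild type arrays. It was 2.07-fold lower without overlap (-1.05 ± 0.15, SE; adjusted p = 0.00511).

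The remaining receptors of this kind ranged from -0.59 to 0.00. The smallest p-value among them was that of Cd160, a receptor of intraepithelial lymphocytes and NK cells, with -0.59 ± 0.14 (SE; adjusted p = 0.0759) and no overlap. Cd69, a marker of recent activation and tissue residence, had a change of -0.48, and Cd27, a costimulatory receptor of the TNF receptor family, one of -0.39. Cd5 and Cd6, scavenger receptor family members that are neighbours on chromosome 19, had changes of -0.21 and -0.22. Cd28, the main costimulatory receptor of naive T cells, differed by -0.04 ± 0.14 (SE, 95% interval -0.35 to 0.27). Cd2, an adhesion receptor of T and NK cells, differed by 0.00 ± 0.15 (SE, 95% interval -0.33 to 0.34). The rows of Cd28 and Cd2 had group means between 5.1 and 5.56, which were not shown to be above background. Cd244a, the SLAM family receptor listed as Cd244, stood at 6.27, 5.90 and 5.88 in ISR2 arrays against 7.01, 6.94 and 6.34 in wild type arrays (-0.75 ± 0.20, SE; adjusted p = 0.103).

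The 3 killer lectin receptors did not pass. Klrd1, which encodes CD94, stood at 5.80, 6.0 and 4.52 in ISR2 arrays and at 7.08, 6.49 and 5.82 in wild type arrays. Its change of -1.03 ± 0.41 (SE; adjusted p = 0.316) came with wide spread in both groups, whose values overlapped. Klrb1c, which encodes the NK cell marker NK1.1, had a change of -0.50 and Klrk1, which encodes the activating receptor NKG2D, one of -0.13. The rows of Klrb1c and Klrk1 had group means between 3.86 and 4.36, which were not shown to be above background, as no detection call was used.

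Among the effector genes Gzmb and Ccl5 fell. Gzmb, which encodes the cytotoxic protease granzyme B, stood at 7.18, 7.41 and 6.78 in ISR2 arrays, against 8.81, 8.61 and 8.25 in wild type arrays. It had the most negative change of the 45 members, 2.70-fold lower without overlap (-1.43 ± 0.20, SE; adjusted p = 0.00427). Ccl5, a chemokine stored by memory CD8 T cells, stood at 9.13, 9.29 and 8.56 in ISR2 arrays and at 10.22, 10.18 and 9.75 in wild type arrays. It was 2.08-fold lower (-1.06 ± 0.21, SE; adjusted p = 0.0299), and the call was lost when ISR2 replicate 1 or 3 or wild type replicate 1 or 2 was left out (adjusted p up to 0.149).

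Other cytotoxic genes varied more or moved less. Gzma, which encodes granzyme A, stood at 8.10, 8.96 and 6.98 in ISR2 arrays against 9.84, 9.73 and 8.44 in wild type arrays. Its change of -1.32 was close to that of Gzmb, but its values overlapped and its SE was 0.50 (adjusted p = 0.284; 95% interval -2.44 to -0.20). Nkg7, a granule membrane protein, stood at 6.92, 7.37 and 6.59 in ISR2 arrays and at 8.25, 7.89 and 7.52 in wild type arrays, without overlap (-0.93 ± 0.23, SE; adjusted p = 0.0862). Changes were -0.38 for Xcl1, a chemokine that attracts dendritic cells, -0.29 for Prf1, which encodes perforin, and -0.15 for Gzmk, which encodes granzyme K. They were -0.14 for Ifng, the interferon gamma gene, and -0.11 for Fasl, the death receptor ligand.

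The promoter windows of Gzmb (chr14:56262285-56262584, minus strand) and Cd96 (chr16:46120199-46120498, minus strand) are shown because both genes fell in each fit without 1 array and both hold RUNX letters, with 2 matches each. Runx3 itself is among the members and did not pass in limma (adjusted p = 0.14). RUNX letters stood in 2 of the 6 windows of genes that fell, and in 44.7% of the member windows. Whether a RUNX factor acts on these genes was not tested.
Gzmb: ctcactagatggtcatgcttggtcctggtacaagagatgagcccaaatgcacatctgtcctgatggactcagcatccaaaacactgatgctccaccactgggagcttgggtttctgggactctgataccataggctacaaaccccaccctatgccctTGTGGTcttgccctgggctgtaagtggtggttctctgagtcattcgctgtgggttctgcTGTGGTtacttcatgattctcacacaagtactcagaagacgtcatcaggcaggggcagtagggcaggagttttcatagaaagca
Cd96: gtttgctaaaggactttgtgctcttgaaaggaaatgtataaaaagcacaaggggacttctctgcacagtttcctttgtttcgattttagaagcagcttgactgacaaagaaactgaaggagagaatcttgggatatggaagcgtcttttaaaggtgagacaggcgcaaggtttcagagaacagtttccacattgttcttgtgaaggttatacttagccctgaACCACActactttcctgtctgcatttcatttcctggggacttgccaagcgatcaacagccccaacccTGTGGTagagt

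Of the 5 homing and retention genes, Ccr9 fell. It stood at 4.22, 4.42 and 4.48 in ISR2 arrays, against 5.54, 4.97 and 5.47 in wild type arrays, and was 1.94-fold lower (-0.96 ± 0.17, SE; adjusted p = 0.018). The groups did not overlap; the call was lost when ISR2 replicate 1 or wild type replicate 1 or 3 was left out (adjusted p up to 0.105), and the ISR2 level was not shown to be above background. Itgae, which encodes CD103, stood at 6.83, 6.94 and 6.49 in ISR2 arrays and at 7.66, 7.42 and 7.18 in wild type arrays. These did not overlap, but the change of -0.66 ± 0.17 (SE) did not pass (adjusted p = 0.0896). Cxcr6, the receptor of CXCL16 and separated from Ccr9 on chromosome 9 by 1 protein-coding gene, had a change of -0.28 with overlapping groups. Itgal, which encodes the LFA-1 alpha chain, had a change of -0.27 and Cxcr3, a receptor of interferon-induced chemokines, one of -0.20.

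Il2rb, the beta chain shared by the receptors of interleukins 2 and 15, stood at 5.78, 6.01 and 5.63 in ISR2 arrays, against 6.44, 6.40 and 6.61 in wild type arrays. It was 1.6-fold lower without overlap (-0.68 ± 0.14, SE; adjusted p = 0.0368). It passed only in the fit without ISR2 replicate 2 among the 6 that left out 1 array (adjusted p up to 0.159), and it did not pass after median centring. Il7r, the interleukin 7 receptor of naive and memory T cells, differed by -0.16 ± 0.20 (SE; 95% interval -0.62 to 0.29). Of the 4 transcription factors none passed: Runx3, which sets the CD8 lineage, had a change of -0.52 (adjusted p = 0.14) and Tbx21, which encodes T-bet, one of -0.42. Eomes, a T-box factor of memory CD8 T cells and NK cells, differed by -0.13, and Gata3, the factor of type 2 helper cells, by -0.03 ± 0.12 (SE; 95% interval -0.30 to 0.23).

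Within each group, replicate 3 was most often the lowest array of the members. The lowest of the 6 values was in an ISR2 array for all 45 members, against 65.7% of all genes. It was in ISR2 replicate 3 for 28 of 45, against 24.0% of all genes, and in ISR2 replicate 2 for 12, against 27.8%. Those shares of all genes were taken over all 6 arrays, so these comparisons include the difference between the groups. The share within the ISR2 group alone was not counted. In the wild type group replicate 3 was the lowest array for 27 of 45 members, for which the share over all genes was not counted. Replicate 3 also had the lowest array median of each group, 6.04 in ISR2 and 6.10 in wild type. The mean of the 45 members was 6.03, 6.01 and 5.78 in ISR2 replicates 1 to 3, against 6.58, 6.47 and 6.31 in wild type replicates 1 to 3. Over the 9 members that fell, which were picked for this difference, it was 6.81, 6.95 and 6.53 in ISR2 arrays against 8.00, 7.85 and 7.65 in wild type arrays. The widest ranges within the ISR2 group were those of Gzma, 1.98, and Klrd1, 1.48.

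**Figure D3:**
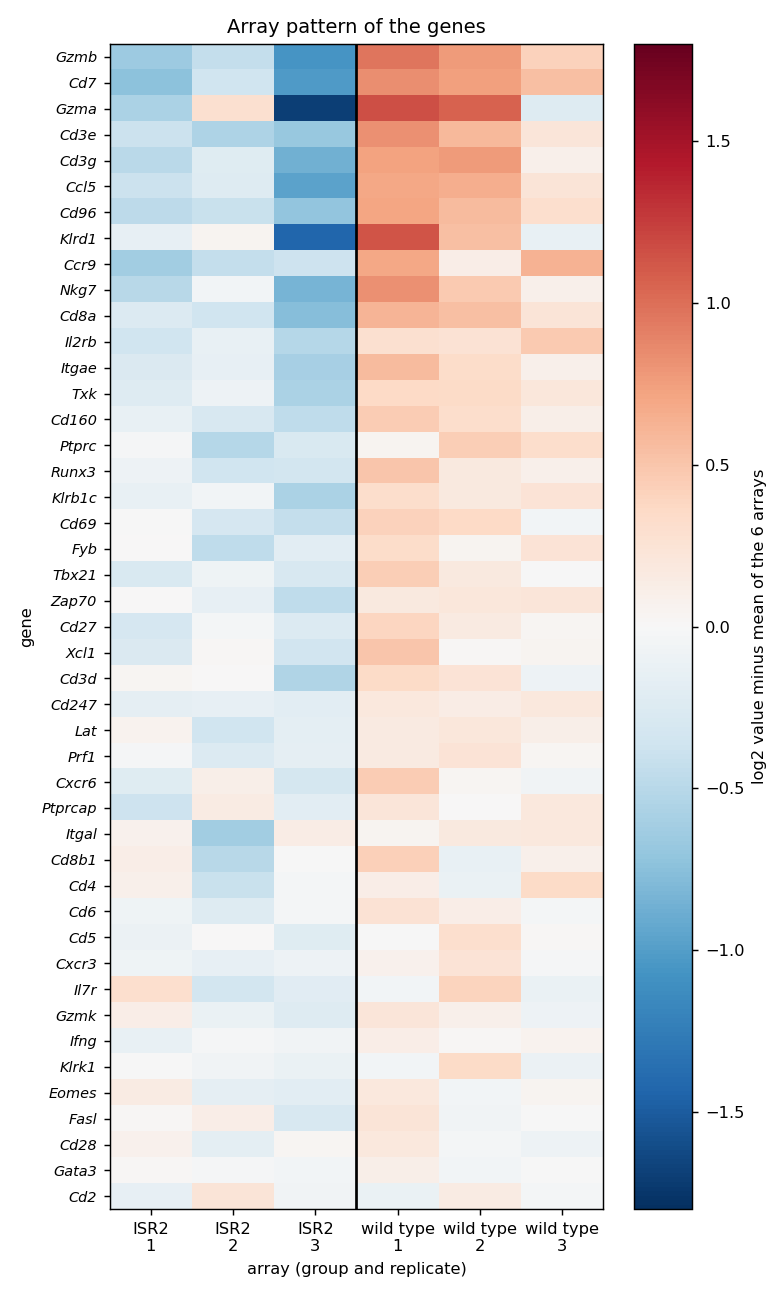
Log2 value of each gene in each array minus its mean over the 6 arrays, ordered by log2 change, with ISR2 arrays left of the black line and wild type arrays right of it. Blue cells fill the ISR2 columns in the upper rows, most deeply in ISR2 replicate 3, and the lowest rows (Gata3, Cd2, Cd28) have no group pattern.

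Other lymphocyte genes gave few calls. Among 27 further T cell receptor signalling genes, 1 fell and 0 rose, with a median change of -0.22. Changes were below 0 in 23 of the 27 (85.2%), against 62.6% of all genes. The gene that fell was Sh2d1a, the SLAM-associated adaptor, at 4.11, 4.23 and 3.95 in ISR2 arrays against 4.75, 4.68 and 4.83 in wild type arrays (-0.66 ± 0.13, SE; adjusted p = 0.0271). It passed only without ISR2 replicate 2 among the fits that left out 1 array (adjusted p up to 0.119). Of the 27 signalling genes, 8 were lower and 1 higher at an unadjusted p under 0.05, against 8.4% and 4.73% of all genes. All ISR2 arrays lay below all wild type arrays in 33.3% of the 27, against 13.9% of all genes. That share was 34.5% in the further intraepithelial and cytotoxic list and 15.8% in the helper, regulatory and innate lymphoid list. None of 29 further intraepithelial and cytotoxic genes passed in limma (5 lower and 1 higher at an unadjusted p under 0.05), with a median of -0.20; the smallest p-values were those of Ctsw, a protease of cytotoxic cells (-0.56; adjusted p = 0.114), and Tyrobp, an adaptor of NK and myeloid receptors (-0.68; adjusted p = 0.136). None of 19 helper, regulatory and innate lymphoid genes passed in limma (2 lower at an unadjusted p under 0.05), with a median of -0.14, and Lef1, a T cell factor, and Ikzf2, which encodes Helios, had changes of -0.35 and -0.40.

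Ligands and epithelial partners of the members were measured in the same tissue. Of 31 measured, 1 rose and 0 fell in limma, where 1.79% of all genes rose and 1.23% fell. Changes were below 0 in 22 of the 31 (71.0%), against 62.6% of all genes. At an unadjusted p under 0.05 in limma, 6 were lower and 1 was higher, against 8.4% and 4.73% of all genes. All ISR2 arrays lay below all wild type arrays in 19.4% of the 31, against 13.9% of all genes. Cxcl16, the epithelial and myeloid ligand of CXCR6, stood at 8.82, 8.74 and 8.34 in ISR2 arrays, against 7.86, 7.60 and 7.80 in wild type arrays. It was 1.84-fold higher in ISR2 (0.88 ± 0.16, SE; adjusted p = 0.018), and the call was lost when ISR2 replicate 1 or wild type replicate 1 or 2 was left out (adjusted p up to 0.103). Ccl25, the ligand of CCR9, stood at 12.01, 12.35 and 12.13 in ISR2 arrays against 12.72, 12.49 and 12.51 in wild type arrays, without overlap (-0.41 ± 0.14, SE; adjusted p = 0.229). Il15 stood at 7.45, 8.16 and 7.20 in ISR2 arrays and at 8.22, 7.93 and 7.69 in wild type arrays, which overlap (-0.34 ± 0.24, SE; adjusted p = 0.633). Cdh1, which encodes E-cadherin, differed by 0.04 ± 0.19 (SE; 95% interval -0.40 to 0.48). The list also held Rae1, a gene of RNA export that is no ligand of NKG2D.

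Markers of other cells in the scrapings and general leukocyte markers also differed between arrays. The general leukocyte markers include T cells among the cells they mark, so they do not stand for other cells alone. Vav1 and Cd48 of that list were also counted in the signalling and ligand lists. General leukocyte markers were below wild type in 12 of 12 genes, of which 1 fell, Cytip (-0.73; adjusted p = 0.0283; up to 0.141 without 1 array, lost when ISR2 replicate 2 or 3 or wild type replicate 1 or 3 was left out). Of these 12, 9 were lower and 0 higher at an unadjusted p under 0.05, against 8.4% and 4.73% of all genes. In 11 of the 12 (91.7%) all ISR2 arrays lay below all wild type arrays, against 13.9% of all genes. The median change of the 12 was -0.56, against -0.39 over the 45 members. The mean of the leukocyte markers was 6.87, 6.22 and 6.66 in ISR2 replicates 1 to 3, against 7.16, 7.16 and 7.18 in wild type replicates 1 to 3. Of the 12, 11 were lowest in ISR2 replicate 2. None of 12 B and plasma cell markers passed in limma (2 lower at an unadjusted p under 0.05). Of the 12, 10 were below wild type (83.3%), against 62.6% of all genes. All ISR2 arrays lay below all wild type arrays in 16.7% of the 12, against 13.9% of all genes. The B and plasma cell mean was 6.33, 5.90 and 6.0 in ISR2 arrays against 6.19, 6.45 and 6.33 in wild type arrays. Of 15 myeloid markers 1 rose in limma, Cd14 (1.16, adjusted p = 0.00223), and 2 were lower at an unadjusted p under 0.05. Changes were below 0 in 12 of the 15 (80.0%), against 62.6% of all genes, with a list median of -0.22. All ISR2 arrays lay below all wild type arrays in 13.3% of the 15, against 13.9% of all genes. The myeloid mean ranged from 6.33 to 6.92 in ISR2 arrays and from 6.73 to 7.01 in wild type arrays. None of 8 granulocyte and mast cell markers passed in limma, with 0 in either direction at an unadjusted p under 0.05. Of 16 epithelial markers 1 fell, Alpi (-0.77; adjusted p = 0.0417; up to 0.194 and passing only when ISR2 replicate 2 was left out, among the fits without 1 array). In 6 of the 16 epithelial markers (37.5%) all ISR2 arrays lay below all wild type arrays, against 13.9% of all genes, and 6 were lower and 0 higher at an unadjusted p under 0.05, against 8.4% and 4.73% of all genes. The epithelial mean ranged from 11.72 to 11.86 in ISR2 arrays and from 11.86 to 12.07 in wild type arrays.

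None of 15 smooth muscle, stroma and endothelial markers passed in limma, with 0 in either direction at an unadjusted p under 0.05, but the amount of smooth muscle signal set 2 arrays apart. The mean of Acta2, Myh11, Des, Tagln and Cnn1 was 7.91, 10.26 and 8.06 in ISR2 replicates 1 to 3, against 7.36, 11.07 and 7.98 in wild type replicates 1 to 3. Without both replicates 2, 5 of the 45 members fell, against 0.797% of all genes, and the median change of the members was -0.43. The part of other cells in the lower values of the T cell genes was not tested, and the general leukocyte markers do not separate them from T cells.

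**Figure D4:**
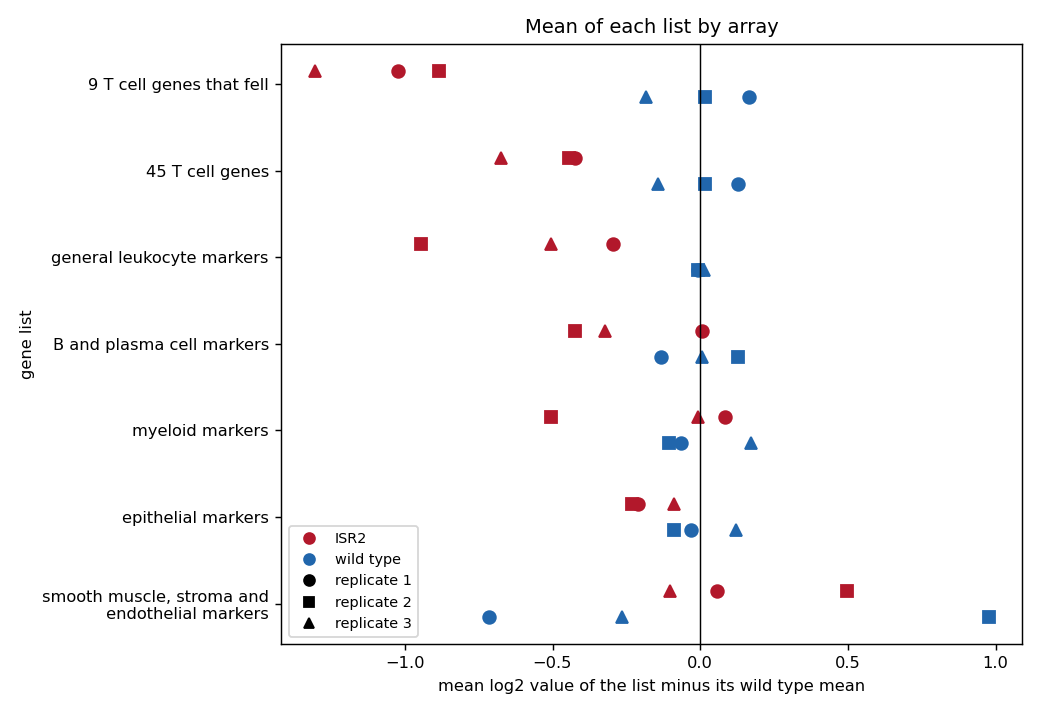
Mean log2 value of each gene list in each array minus the list's wild type mean, with ISR2 above wild type in each row and marker shape for replicate. The ISR2 arrays lie below all wild type arrays for the T cell genes and the general leukocyte markers, and overlap them for B and plasma cell, myeloid and smooth muscle lists. For the epithelial list no ISR2 array lies clearly above a wild type array, as the highest ISR2 mean and the lowest wild type mean are both 11.86.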

How the data were processed

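Total RNA of jejunal mucosal scrapings was hybridised to arrays by the Affymetrix whole-transcript protocol, per the labels' protocols. Values were deposited on a log2 scale; the submitters' processing notes name RMA, a method that corrects background, equalises the arrays' distributions and summarises probe sets, without a version or filter. RMA removes changes shared by most genes and can compress changes of dim genes. The table held 35556 rows, of which 21789 had 1 gene symbol, 1621 several and 12146 none in the array's annotation; 21698 of the first matched the GRCm38.p6 gene table by Entrez ID. For the 999 genes with several rows, the brightest row by its mean over all arrays stood for the gene, which left 19938 genes.

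ISR2 was compared with wild type with limma 3.58.1 (lmFit, eBayes; R 4.3.3) over all 6 arrays without covariates, two-sided, with Benjamini-Hochberg adjustment over all genes and a threshold of 0.05. The steps were tested on simulated data with independent noise for each gene. Such data hold no effect shared by the genes of an array, so the simulation does not show how the fit handles one. The members and lists were chosen with earlier results of these data known, so counts of members stand beside counts over all genes, with no test of a list. All members could be named; of each further lymphocyte or ligand list, the text names the genes that passed or otherwise the 2 with the smallest p, with Cdh1, Ccl25 and Il15 always named. Marker genes that passed and promoter motifs were picked after values were seen. Pearson's r across genes, which are not independent replicates, was 0.978 to 0.991 within groups and 0.970 to 0.982 between groups. Figures were drawn with matplotlib 3.10.9.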

Additional observations from a re-analysis of the deposited data

How the results depend on the processing

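The median change of the members kept its sign in every alternative run, between -0.51 and -0.32, and no member rose in any. The count of members that fell, 9, was 14 with array weights (638 genes fell and 630 rose), 4 with all rows tested (91 genes fell), 15 with the replicate number as a block (352 genes fell, 1.77% against 1.23% without it), 5 without both replicates 2, an alternative chosen after seeing the data (159 genes fell), and between 4 and 11 without 1 array at a time, where 85 to 236 genes fell and 236 to 353 rose. The fit with array weights leaned on 1 ISR2 array. The weight was 4.059 for ISR2 replicate 1, 0.402 for replicate 2 and 0.669 for replicate 3. At an adjusted p of 0.10, 386 genes and 13 members fell. Changes that turned sign were all of genes that had not passed. With array weights Cd2 was -0.12, Cd28 0.03, Il7r 0.07 and Eomes 0.02; after median centring Cd28 was 0.00 and Gata3 0.01, and after quantile normalization Gata3 was 0.01. Without 1 array at a time, Cd2 ranged from -0.11 to 0.08, Cd28 from -0.10 to 0.04, Gata3 from -0.07 to 0.01, Klrk1 from -0.21 to 0.02, Il7r from -0.35 to 0.00, Fasl from -0.19 to 0.01 and Cdh1 from -0.14 to 0.19. Without ISR2 replicate 2 and wild type replicate 3 together, Cd4 was 0.03 and Cd2 -0.13; without both replicates 2, Cd2 was -0.03, Cd28 0.01, Klrk1 0.02 and Il7r 0.13. The cause was not tested. The same-numbered arrays did not all deviate together (correlation of deviations from the group means across genes -0.02, 0.32 and 0.54 for replicates 1, 2 and 3). Both replicates 2 had a high mean of the 5 smooth muscle genes, 10.26 in ISR2 and 11.07 in wild type. No label pairs the arrays, and whether same-numbered arrays share more than a number was not tested. Dim rows have no detection call, so small changes in them may be understated.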

Other observations

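Rows annotated to gene segments of the T cell receptor were looked at after the values were seen, so they are given as values without a test. The segments encode the variable parts of the receptor chains, and single rows can match several of them. Rows were taken only where every symbol named a segment of the same chain, so rows that also name other genes are left out. All 4 rows taken for gamma chain segments had all 3 ISR2 arrays below all 3 wild type arrays, where 11.0% of all 35556 rows did. Trgv1, the only gamma segment with a row of its own, stood at 5.64, 6.37 and 5.26 in ISR2 replicates 1 to 3, against 7.07, 6.82 and 6.60 in wild type replicates 1 to 3, a log2 change of -1.07. The other 3 gamma rows, each naming several segments, had changes of -1.28, -1.63 and -1.25. The row with the most negative change stood at 8.16, 8.31 and 7.20 in ISR2 arrays and at 9.95, 9.56 and 9.06 in wild type arrays.

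The 45 rows annotated to alpha chain segments are not all distinct measurements, since some repeat the 6 values of another row exactly, which leaves 34 distinct rows. These ranged from -0.35 to 0.72 with a median of 0.02. In 33 of the 34 the groups overlapped, and 1 had all ISR2 arrays above. The 4 gamma rows are distinct in their values, but the 3 that name several segments share some of them. The 2 beta rows had changes of -0.24 and -0.21 and the 1 delta row, Trdv2-2, one of -0.27, with overlapping groups in all 3. Levels of these rows cannot be compared with each other, and no detection call shows which of the alpha rows were above background. Whether the gamma rows changed more than the alpha rows was not tested.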
